A study of Mus musculus with 16 samples.

Results

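The TNF superfamily was followed in eWAT, the epididymal white fat depot, of obese and diabetic db/db mice that had been given LRG1. The family was taken by gene symbol as every gene whose name starts with Tnfsf (ligands) or Tnfrsf (receptors), plus 14 relatives that carry other names (Tnf, Lta, Ltb, Ltbr, Cd27, Cd70, Cd40, Cd40lg, Fas, Fasl, Eda, Edar, Eda2r and Ngfr). This rule found 47 of the 55573 genes of the count table. They were grouped by known role into 18 ligands, 7 receptors with a death domain, 16 receptors that bind TRAF adaptors, 4 decoy or mouse cluster receptors and 2 further transcripts.

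All animals were C57BLKS/J-db/db males, which lack a working leptin receptor, on standard chow. The LRG1 group received AAV8-LRG1-FL, which encodes LRG1 with a C-terminal FLAG tag, and the eGFP group AAV8-eGFP, through the retroorbital route at 4 weeks of age. LRG1 (leucine-rich alpha-2-glycoprotein 1) is a secreted protein. Whole eWAT was sequenced from 4 LRG1 and 4 eGFP mice at week 7 of age and from 4 of each at week 10, 16 libraries in all. AAV8 reaches liver and fat among other tissues, and the CB7 promoter of the vector is active in many cell types, so no single cell type was targeted. Each cage of 4 mice was assigned as a whole to LRG1 or eGFP, so cage and vector cannot be told apart.

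Lrg1 itself was counted at 288 to 478 CPM in the LRG1 libraries of week 7, against 86.2 to 110.2 CPM in the eGFP libraries. At week 10 it stood at 286 to 624 CPM in LRG1 libraries, against 99.6 to 115 CPM in eGFP libraries. CPM are counts scaled to 1000000 of the library total, itself adjusted by TMM scaling. The counts do not separate the vector's transcript from that of the mouse gene. Library totals ran from 45376227 to 67539937 counts. The tissue label was borne out by the markers, since 12 adipocyte genes summed to at least 13841 CPM in each library while 10 genes of epididymis and testis summed to at most 1.41 CPM. Libraries 1 and 3 of the eGFP group at week 10 stood apart from libraries 2 and 4, and the main results of week 10 are therefore given with and without them.

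TNF superfamily ligands are mostly membrane proteins that act as trimers on the same or a neighbouring cell, and some, TNF among them, are also cut off and released. Their receptors signal in different ways. Receptors with a death domain, such as TNFR1 and Fas, can start apoptosis or NF-kB signalling through adaptors such as TRADD and FADD, whereas receptors that bind TRAFs feed into NF-kB and MAP kinase pathways and serve mainly in the activation and survival of immune cells. Decoy receptors bind ligands without passing on a signal. In obese fat, TNF is made largely by macrophages and is known for blunting insulin action in adipocytes, while members such as 4-1BB (Tnfrsf9) and Fas ligand mark activated lymphocytes.

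Promoter sequences of 2 members are shown because both genes were lower in LRG1 fat at week 7 and both carry a match to the NF-kB motif near a RefSeq start. Windows from 250 bases before to 50 bases after each RefSeq start (GRCm38.p6) were at hand for 36 of the 47 members, 40 windows in all. The letters GGG, any 2 bases and then TTTCC were searched on both strands. The first sequence is that of Ltb on the plus strand at chr17:35194257-35194556, and the second is that of Tnfrsf9 on the plus strand at chr4:150927749-150928048. Capitals mark the match, which begins at position -87 in Ltb and at position -43 in Tnfrsf9, counted from the RefSeq start. Tnfrsf9 has a further RefSeq start, and its window at chr4:150919905-150920204 held no match.
Ltb: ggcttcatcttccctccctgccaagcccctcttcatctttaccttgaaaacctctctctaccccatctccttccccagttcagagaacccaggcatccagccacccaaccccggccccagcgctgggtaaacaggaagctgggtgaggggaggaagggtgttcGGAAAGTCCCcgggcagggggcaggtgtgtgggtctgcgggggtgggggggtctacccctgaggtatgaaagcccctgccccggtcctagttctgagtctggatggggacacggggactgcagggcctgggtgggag
Tnfrsf9: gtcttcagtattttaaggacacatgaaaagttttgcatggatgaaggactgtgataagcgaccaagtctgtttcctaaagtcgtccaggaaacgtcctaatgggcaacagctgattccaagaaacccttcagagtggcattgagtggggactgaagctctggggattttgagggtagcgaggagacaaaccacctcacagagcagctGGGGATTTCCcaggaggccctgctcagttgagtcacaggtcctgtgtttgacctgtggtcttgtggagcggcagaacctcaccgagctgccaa
The motif was found in 3 of the 40 member windows (7.5%), the third being that of Tnfrsf25 at position -218, and in 1.63% of all 32851 promoter windows. Among the 14 windows of members that were lower at week 7, which belong to 12 genes, 2 held it. The STAT motif TTCNNNGAA, also read on both strands, was found in 9 member windows (22.5%) and in 8.30% of all windows. The PU.1 motif GAGGAAGT was in 1 member window (2.5%) and in 3.20% of all. These matches are letters in a window and were not tested for binding.

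Levels were compared between genes per kilobase of the gene length in the table. Over all 16 libraries Tnfrsf1a, which encodes the widely expressed TNF receptor TNFR1, was the most abundant member with a mean level of 32.3 CPM per kb. It was followed by the lymphotoxin beta receptor Ltbr at 21.6 CPM per kb, the second TNF receptor Tnfrsf1b at 18.8 CPM per kb and the death receptor Fas at 11.8 CPM per kb. This order was not the same in each group, since Tnfrsf1b stood below Ltbr in LRG1 fat (11.3 against 22.1 CPM per kb at week 7 and 10.5 against 21.5 CPM per kb at week 10) and above it in eGFP fat (27.9 against 21.6 CPM per kb at week 7 and 25.8 against 21.3 CPM per kb at week 10). The most abundant ligand was Tnfsf12, which encodes TWEAK, at 9.80 CPM per kb. Other ligands were far lower, with 1.53 CPM per kb for Ltb, 1.5 CPM per kb for Tnf and 1.5 CPM per kb for Tnfsf10 (TRAIL).

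**Figure D1:**
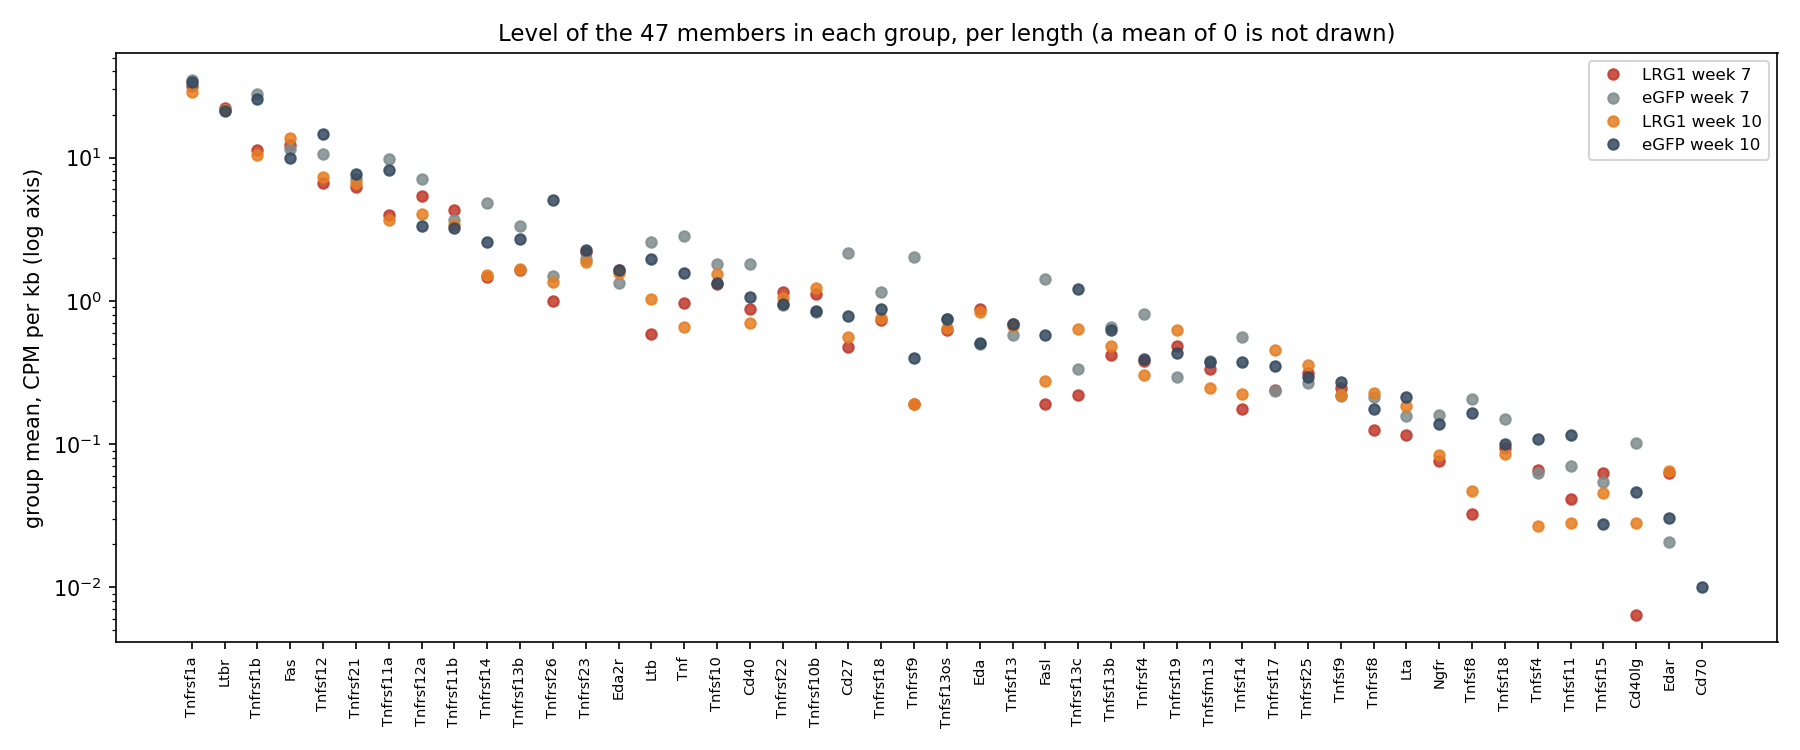
Group mean of each of the 47 members in CPM per kb on a log axis, in order of the mean over all 16 libraries. Points are the 4 groups (n = 4 mice each), and the receptors Tnfrsf1a (32.3), Ltbr (21.6) and Tnfrsf1b (18.8) lead, while Cd70 is the lowest.

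At the other end, 3 ligands did not pass the filter on low counts and were not tested. Cd70, the ligand of CD27, had 2 counts over all 16 libraries, Cd40lg, the T cell ligand of CD40, had 57, and Tnfsf4 (OX40 ligand) had 114. The other 44 members were tested, and 24 of them had a mean level under 1 CPM per kb.

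The first question was which members differed between LRG1 and eGFP fat at week 7. In this comparison 13 of the 44 tested members were lower in LRG1 eWAT and none was higher, with edgeR's quasi-likelihood test at a Benjamini-Hochberg adjusted p below 0.01. Of all 20822 genes tested, 10.7% were lower and 7.37% higher by the same rule. The median log2 fold change was -0.52 over the members and 0.0059 over all genes. At an unadjusted p below 0.05, 4 members were higher, where 21% of all genes were. DESeq2 and limma-voom each called 1 higher member, Eda, beside 11.5% and 7.87% of all genes. By role, 6 of 15 tested ligands and 7 of 16 TRAF-binding receptors were lower. Of the death domain receptors 0 of 7 were lower, and of the decoy or cluster receptors 0 of 4. In classes as small as the death domain and the decoy or cluster receptors, a count of 0 is near the 10.7% of all genes. In 20 members every LRG1 library was below every eGFP library and in 4 the reverse held, while 19.4% and 18.6% of all genes were separated in these ways.

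**Figure D2:**
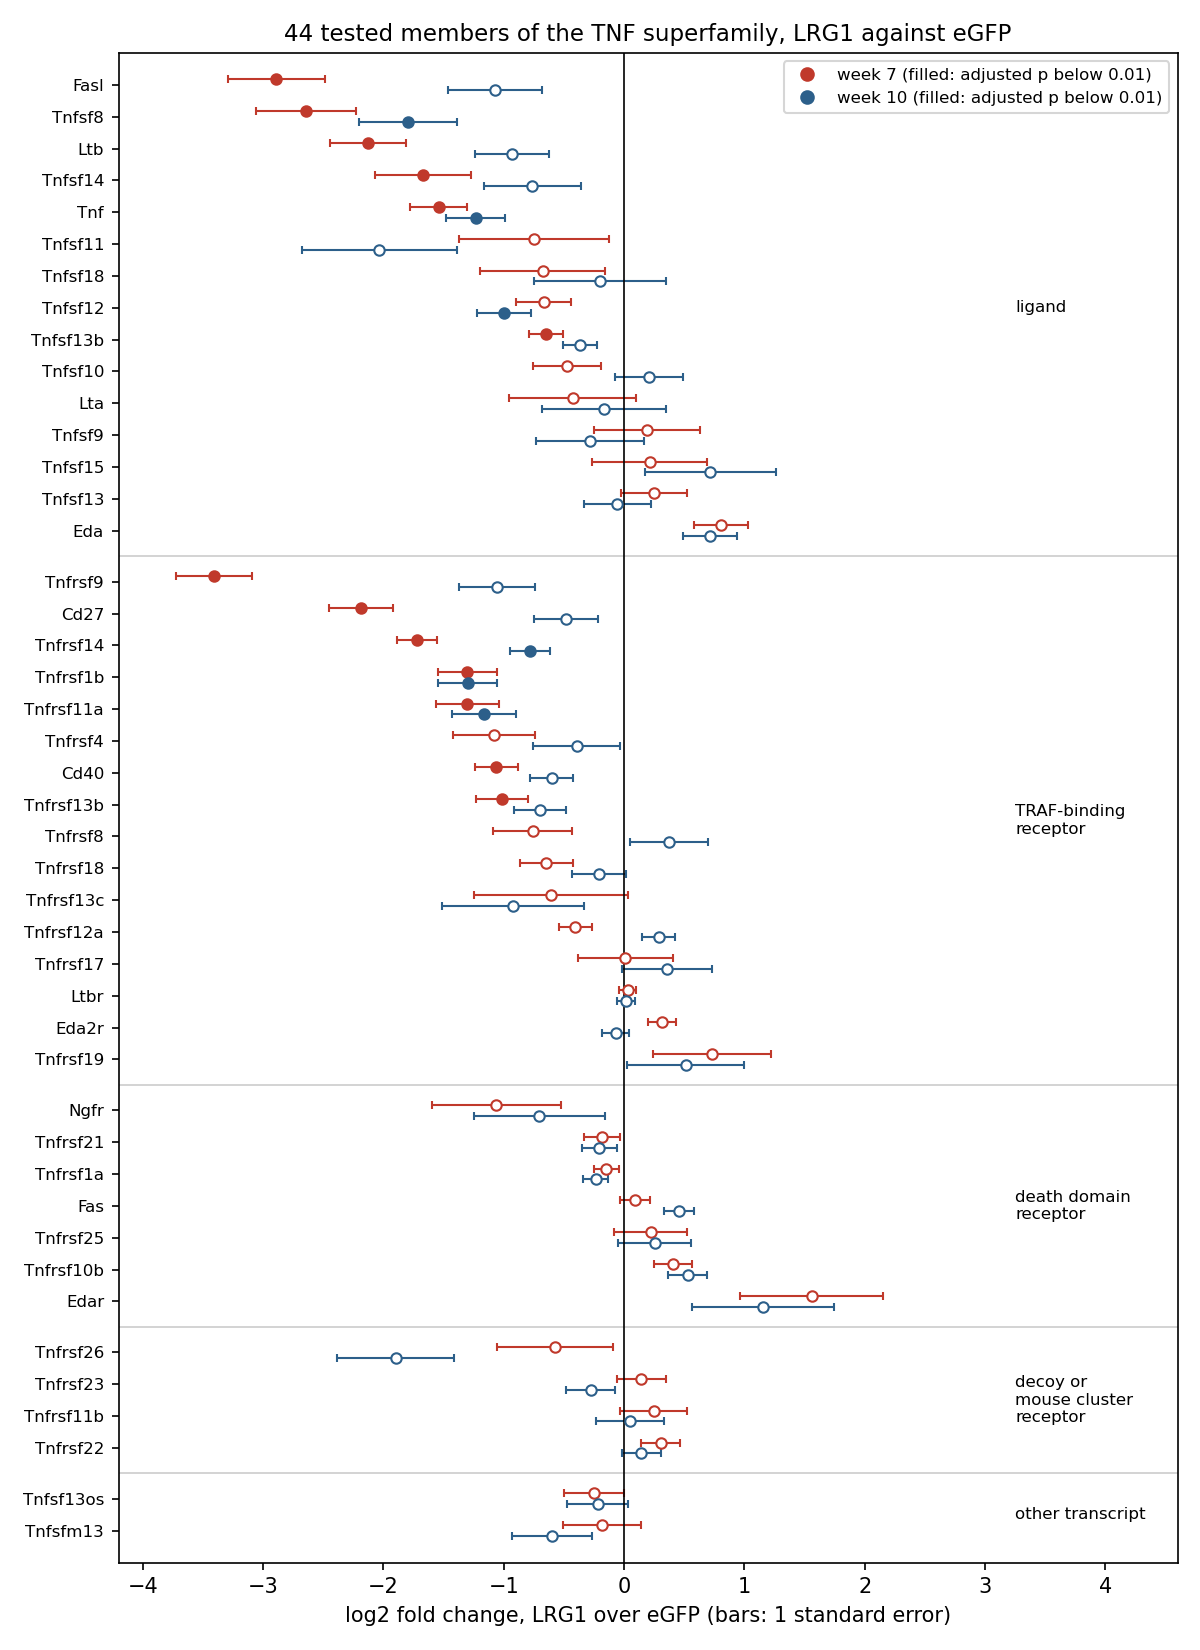
Log2 fold change of LRG1 over eGFP for the 44 tested members, grouped by role, at week 7 (red) and week 10 (blue). Bars are 1 standard error and filled points have an adjusted p below 0.01, which are 13 members at week 7 and 6 at week 10, all of them lower in LRG1.

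Fasl, Tnfsf8 and Ltb, which lymphocytes make, had the largest fold changes among the ligands called at week 7. Fasl, the Fas ligand with which cytotoxic lymphocytes kill, was at 0.382, 0.574, 0.0975 and 0.431 CPM in LRG1 mice, against 3.96, 2.45, 1.93 and 2.68 CPM in eGFP mice. Every eGFP library thus held more than 3 times the highest LRG1 value, and the log2 fold change was -2.89 (SE 0.40, adjusted p = 9.9e-05). Tnfsf8, the CD30 ligand of activated T cells, was at 0.0955, 0.101, 0.162 and 0.138 CPM in LRG1 mice, against 0.791, 0.652, 0.537 and 1.17 CPM in eGFP mice. The groups did not overlap (log2 fold change -2.64, SE 0.42, adjusted p = 2.7e-04).

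Ltb encodes lymphotoxin beta, which with lymphotoxin alpha forms the membrane ligand of Ltbr that shapes lymphoid tissue. It was at 0.859, 1.18, 0.731 and 0.775 CPM in LRG1 mice, against 5.46, 3.82, 2.58 and 3.67 CPM in eGFP mice, with all LRG1 libraries the lower ones (log2 fold change -2.13, SE 0.32, adjusted p = 1.7e-04). Tnf itself was at 1.48, 2.09, 1.15 and 1.62 CPM in LRG1 mice, against 4.76, 4.78, 3.88 and 5.03 CPM in eGFP mice. It was 2.91-fold lower in LRG1 fat with no overlap of the groups (log2 fold change -1.54, SE 0.24, adjusted p = 2.3e-04). Lta, the third gene of this cluster on chromosome 17, was near the limit of counting at 0.0345 to 0.239 CPM in LRG1 mice, against 0.171 to 0.319 CPM in eGFP mice (log2 fold change -0.43, adjusted p = 0.58 by edgeR).

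The other ligands called at week 7 were closer to the threshold. Tnfsf14 (LIGHT), a ligand of both Tnfrsf14 and Ltbr, was at 0.223, 0.574, 0.146 and 0.345 CPM in LRG1 mice, against 0.681, 1.24, 0.932 and 1.25 CPM in eGFP mice (log2 fold change -1.67, SE 0.40, adjusted p = 0.0053). Tnfsf13b (BAFF), a survival factor of B cells, was at 3.42, 2.57, 2.5 and 3.0 CPM in LRG1 mice, against 4.24, 4.16, 4.18 and 5.48 CPM in eGFP mice (log2 fold change -0.65, SE 0.14, adjusted p = 0.0029). In both genes the groups were separate, but the call was lost without single libraries, at adjusted p of 0.015 to 0.020 for Tnfsf14 without LRG1 library 1, 3 or 4 or eGFP library 2 or 4, and of 0.011 to 0.013 for Tnfsf13b without LRG1 library 2 or 3 or eGFP library 4.

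The 1 ligand separated with LRG1 higher was Eda, ectodysplasin, which acts in the growth of hair and glands. It was at 6.06, 5.28, 6.07 and 6.32 CPM in LRG1 mice, against 2.72, 3.37, 4.18 and 3.30 CPM in eGFP mice. Every LRG1 library was above every eGFP library, but the adjusted p of 0.013 (log2 fold change 0.81, SE 0.22) missed the threshold. Its receptors lay on the same side, with log2 fold changes of 0.32 for Eda2r (SE 0.12, adjusted p = 0.047) and 1.56 for the sparse Edar (SE 0.59, adjusted p = 0.056), neither of which was called.

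Among the TRAF-binding receptors, Tnfrsf9 had the smallest adjusted p of all members. It encodes 4-1BB, a costimulatory receptor that appears on T and natural killer cells after activation. It was at 0.493, 0.793, 0.504 and 0.276 CPM in LRG1 mice, against 7.42, 5.96, 3.35 and 5.32 CPM in eGFP mice, which is 10.6-fold lower with no overlap (log2 fold change -3.41, SE 0.31, adjusted p = 1.9e-06). Cd27, a costimulatory receptor of T, B and natural killer cells, was at 1.21, 1.65, 0.585 and 0.965 CPM in LRG1 mice, against 6.68, 4.6, 3.77 and 5.11 CPM in eGFP mice. All eGFP libraries were above all LRG1 libraries (log2 fold change -2.19, SE 0.27, adjusted p = 3.0e-05). Of the members called at week 7, Cd27 (Vamp1), Tnfrsf9 (Camta1), Tnfsf13b (Gm44789) and Tnfrsf13b (Gm12269) overlap the gene in brackets on the other strand. The strand setting of the counting is not given in the sources used here. Reads of these neighbours therefore cannot be told apart from those of the members.

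Tnfrsf14 (HVEM), the receptor of LIGHT, was at 2.29, 2.28, 1.72 and 2.12 CPM in LRG1 mice, against 8.21, 7.44, 5.08 and 6.98 CPM in eGFP mice. The LRG1 libraries were tightly grouped below the eGFP libraries (log2 fold change -1.72, SE 0.17, adjusted p = 3.0e-06). Cd40, through which T cells activate B cells, macrophages and dendritic cells, was at 3.09, 3.21, 3.0 and 2.57 CPM in LRG1 mice, against 6.28, 6.71, 5.65 and 6.13 CPM in eGFP mice. Cd40 was 2.09-fold lower, again with no overlap (log2 fold change -1.06, SE 0.18, adjusted p = 4.3e-04).

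The other TRAF-binding receptors called at week 7 were Tnfrsf1b, Tnfrsf11a and Tnfrsf13b. Tnfrsf1b (TNFR2), the TNF receptor of immune and endothelial cells, was at 47.1, 43.1, 38.0 and 44.2 CPM in LRG1 mice, against 112, 112, 96.3 and 105 CPM in eGFP mice (log2 fold change -1.30, SE 0.24, adjusted p = 0.0010). Tnfrsf11a (RANK), the receptor that drives osteoclast formation from myeloid cells, was at 26.9, 26.5, 17.7 and 24.5 CPM in LRG1 mice, against 59.9, 70.3, 58.2 and 47.3 CPM in eGFP mice (log2 fold change -1.30, SE 0.26, adjusted p = 0.0018). Both were 2.47-fold lower in LRG1 fat, with no overlap of the groups. Tnfrsf13b (TACI), a BAFF and APRIL receptor of B cells and macrophages, was at 4.84, 5.82, 3.83 and 4.26 CPM in LRG1 mice, against 9.32, 13.2, 7.99 and 7.36 CPM in eGFP mice (log2 fold change -1.02, SE 0.22, adjusted p = 0.0025), and this call was lost, at adjusted p of 0.010 to 0.012, without LRG1 library 3 or 4 or eGFP library 2.

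**Figure D3:**
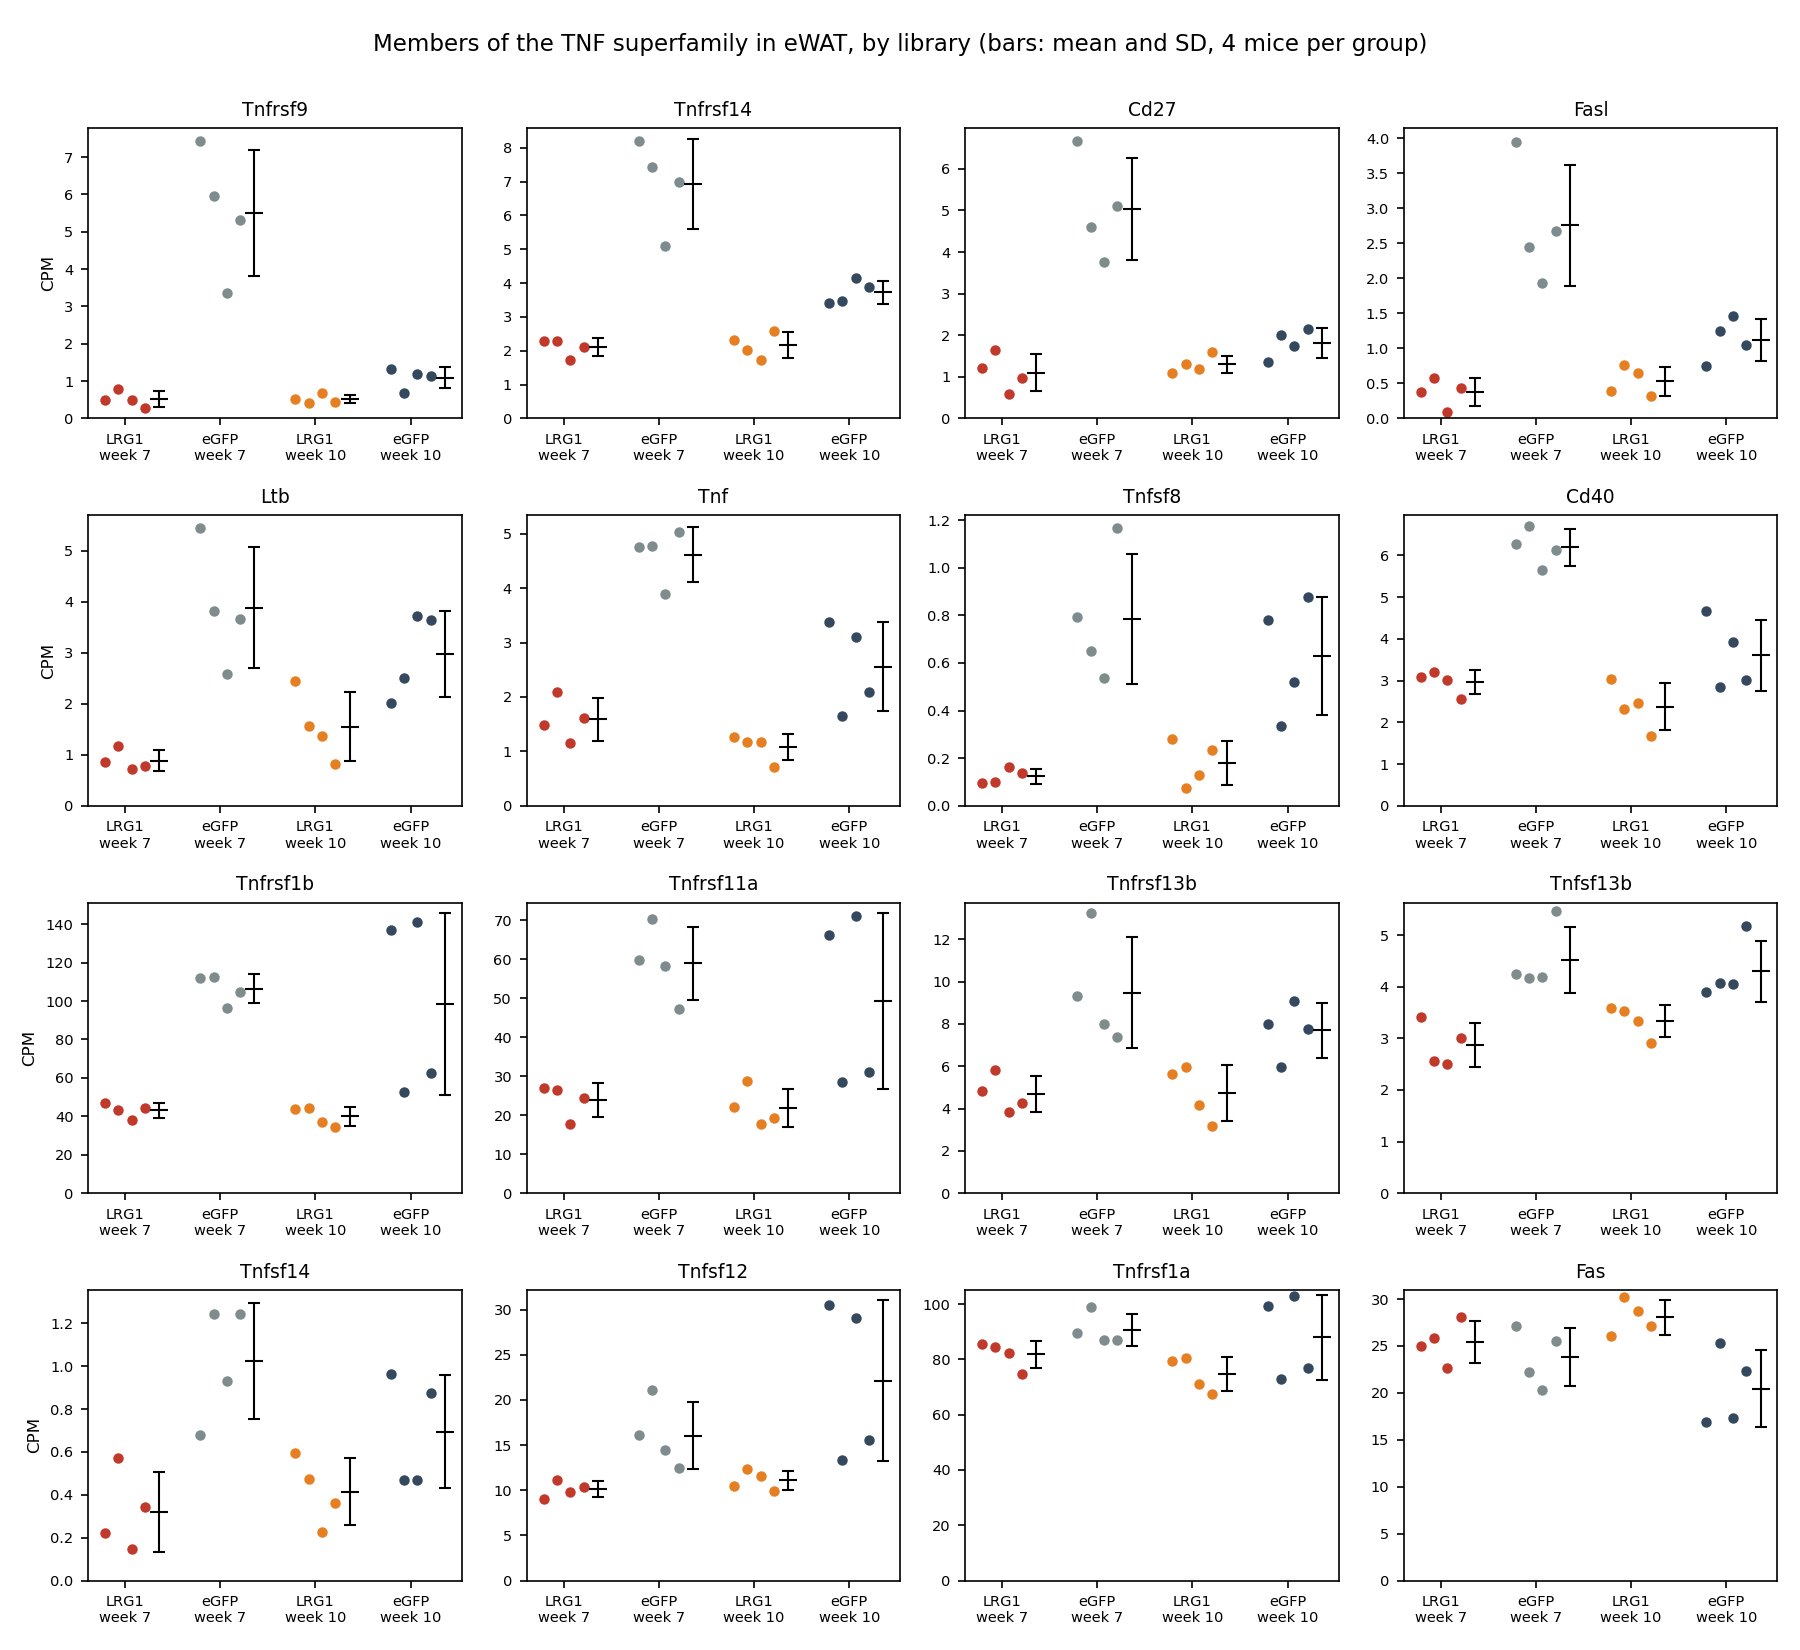
CPM of each library for the 13 members lower at week 7, for Tnfsf12, which was lower at week 10, and for Tnfrsf1a and Fas. Bars are the mean and SD of 4 mice. At week 7 the LRG1 points of Tnfrsf9 lie between 0.276 and 0.793 CPM, below the eGFP points at 3.35 to 7.42 CPM, while the 2 death receptors of the last panels were not called.

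The death domain receptors did not pass the test at week 7. Tnfrsf1a was at 85.6, 84.6, 82.3 and 74.7 CPM in LRG1 mice, against 89.5, 98.9, 87.1 and 86.9 CPM in eGFP mice. The LRG1 libraries were all slightly below, by a log2 fold change of -0.15 (SE 0.10, adjusted p = 0.31). Fas had overlapping groups at 22.7 to 28.0 CPM in LRG1 mice, against 20.4 to 27.2 CPM in eGFP mice (log2 fold change 0.09, SE 0.12). Tnfrsf21 (DR6), Tnfrsf10b (the mouse TRAIL receptor), Tnfrsf25 (DR3) and Ngfr (the low-affinity neurotrophin receptor) had log2 fold changes of -0.18, 0.41, 0.22 and -1.06, with the smallest adjusted p by edgeR at 0.061, for Tnfrsf10b. The decoy receptor Tnfrsf11b (osteoprotegerin) and the 3 receptors Tnfrsf22, Tnfrsf23 and Tnfrsf26, which lie side by side on mouse chromosome 7, had log2 fold changes of -0.57 to 0.31 without a call.

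Set side by side by known binding, ligands and receptors were not called together as a rule. Tnf was lower with Tnfrsf1b but not with Tnfrsf1a. Fasl, Ltb and Tnfsf8 were lower, whereas Fas, Ltbr (log2 fold change 0.03, SE 0.07) and Tnfrsf8 (-0.76, SE 0.33, adjusted p = 0.091) were not called. Conversely, Tnfrsf9 was lower while its ligand Tnfsf9 was not called (log2 fold change 0.19, SE 0.44), and Tnfrsf11a was lower while its ligand Tnfsf11 (RANKL) was not called, at 0.0318 to 0.138 CPM in LRG1 mice, against 0.0565 to 0.317 CPM in eGFP mice. Both partners were lower for LIGHT and HVEM (Tnfsf14 and Tnfrsf14) and for BAFF and TACI (Tnfsf13b and Tnfrsf13b), though the other BAFF receptors, Tnfrsf13c and Tnfrsf17, were not called. These are separate calls, and differences between partners were not tested.

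Further members were separated between the groups at week 7 without passing the threshold. Tnfrsf4 (OX40), Tnfrsf18 (GITR), Tnfrsf12a (the TWEAK receptor Fn14) and Tnfsf12 had all 4 LRG1 libraries below all 4 eGFP libraries, at log2 fold changes of -1.08, -0.65, -0.40 and -0.67 and adjusted p of 0.025 to 0.037 by edgeR. Tnfrsf1a, Tnfrsf21 and Tnfrsf26 were separated in the same direction. The members separated with LRG1 higher were Eda, Eda2r, Edar and Tnfrsf10b. Tnfrsf10b was at 5.50 to 6.65 CPM in LRG1 mice, against 3.77 to 5.28 CPM in eGFP mice. Tnfsf12, Tnfsf13 (APRIL), the readthrough transcript Tnfsfm13 and the antisense transcript Tnfsf13os overlap on chromosome 11, so that their counts are uncertain. The other 3 of this locus had log2 fold changes of -0.25 to 0.25 and none was called.

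Markers of several cell types moved with these members at week 7, where 10.7% of all genes were lower and 7.37% higher. The summed level of 14 T cell markers was 8.77 to 20.1 CPM in LRG1 libraries, against 52.4 to 90.1 CPM in eGFP libraries, and 12 of the 14 were lower by the same test. The 11 markers of cytotoxic and natural killer cells summed to 8.25 to 17 CPM in LRG1 mice, against 37.5 to 82.3 CPM in eGFP mice, with 8 of 11 lower. The 3 not called were Gzmk, Klrb1c and Ncr1, with log2 fold changes of -2.75, -0.26 and -0.02, so not every marker of these cells fell. The 13 macrophage markers summed to 2057 to 2339 CPM in LRG1 mice, against 4379 to 5613 CPM in eGFP mice, with 12 of 13 lower. The 10 B cell markers overlapped (9.86 to 24.7 CPM in LRG1 mice, against 16.5 to 34.9 CPM in eGFP mice), with 1 of 10 lower. Adipocyte markers (12 genes) were higher in sum, at 25608 to 31421 CPM in LRG1 mice, against 18604 to 19778 CPM in eGFP mice, with 3 of 12 higher by the test. Endothelial markers summed to 524 to 709 CPM in LRG1 mice, against 297 to 389 CPM in eGFP mice, with 6 of 9 higher, and markers of smooth muscle and pericytes to 604 to 644 CPM in LRG1 mice, against 389 to 425 CPM in eGFP mice, with 3 of 7 higher. The T cell receptor gene Cd3g averaged 0.443 CPM in LRG1 mice and 10.3 CPM in eGFP mice. Mitochondrially encoded genes took 30.7% to 34.2% of the counts in LRG1 libraries of week 7, against 26.7% to 28.7% in eGFP libraries, and without these genes 13 members were again lower. In such bulk tissue fewer cells of a type and less RNA per cell cannot be told apart, and the part of cell numbers in the members' differences was not tested.

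The signalling genes downstream of the receptors were read from lists chosen by known function, of which several share genes. Of 25 genes that act at the receptors, 8 were lower and 1 higher in LRG1 at week 7 (median log2 fold change -0.29), with the adaptor Traf1 at -1.24 (SE 0.16), the ubiquitin ligase Birc3 at -0.68 (SE 0.10), the adaptor Traf5 at -1.07 (SE 0.16) and Madd, which binds the death domain of TNFR1, at -0.82 (SE 0.14). The higher one was Tab3, a partner of the kinase TAK1, at 0.65 (SE 0.13). Of 16 NF-kB kinases, subunits and inhibitors, 7 were lower and none higher (median -0.32), led by the NF-kB brakes Tnfaip3 (A20) at -0.68, Tnip2 at -0.60 and Nfkbie at -1.07, and by the subunit Nfkb1 at -0.41.

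Of 22 genes that TNF is known to induce, 20 were tested, and 10 were lower and none higher at week 7 (median log2 fold change -0.86). The chemokine Ccl5, which T cells also make in quantity, had -3.84 (SE 0.33), the adhesion molecule Vcam1 -2.21 (SE 0.20), the chemokine Cxcl10 -3.07 (SE 0.31) and the adhesion molecule Icam1 -1.22 (SE 0.14). Among the lower genes of this list, Traf1, Birc3, Tnfaip3 and Nfkbie also stand in the 2 lists above. Of 6 genes for the shedding of TNF, Frmd8 (-0.84, SE 0.13), which stabilises the shedding complex, and the shedding enzyme Adam17 (-0.61, SE 0.16) were lower, and its inhibitor Timp3 was higher (1.04, SE 0.24). These calls carry the same adjusted p threshold, with 10.7% of all genes lower and 7.37% higher.

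At week 10, the second comparison of LRG1 with eGFP, 6 of the 44 tested members were lower in LRG1 fat and none was higher by edgeR, where 5.24% of all genes were lower and 3.66% higher. The median log2 fold change was -0.26 over the members and -0.0047 over all genes. At an unadjusted p below 0.05, 3 members were higher, where 17.4% of all genes were. DESeq2 called 3 higher (Fas, Eda and Tnfrsf10b) and limma-voom none, beside 7.62% and 3.86% of all genes. Of the 6 lower members, 5 had also been lower at week 7 (Tnf, Tnfrsf1b, Tnfrsf14, Tnfsf8 and Tnfrsf11a), and the sixth was Tnfsf12. The groups did not overlap in 8 members with LRG1 lower, where 10.1% of all genes were so separated, and in 2 with LRG1 higher, where 9.96% were.

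At week 10 Tnf was at 1.26, 1.17, 1.18 and 0.721 CPM in LRG1 mice, against 3.37, 1.64, 3.10 and 2.09 CPM in eGFP mice (log2 fold change -1.23, SE 0.24, adjusted p = 0.0035). Tnfrsf1b was at 43.9, 44.5, 37.2 and 34.4 CPM in LRG1 mice, against 137, 52.8, 141 and 62.4 CPM in eGFP mice (log2 fold change -1.30, SE 0.24, adjusted p = 0.0029). The LRG1 groups were below the eGFP groups in both genes, but eGFP libraries 1 and 3 were the highest, and for Tnfrsf1b they were more than 2 times as high as eGFP libraries 2 and 4. Tnfrsf1a showed the same split of the eGFP group at a smaller size, with 79.4, 80.5, 71.2 and 67.6 CPM in LRG1 mice, against 99.1, 72.8, 103 and 76.9 CPM in eGFP mice, and it was not called (log2 fold change -0.24, SE 0.10, adjusted p = 0.11).

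Tnfrsf11a was at 22, 28.8, 17.6 and 19.3 CPM in LRG1 mice, against 66.3, 28.4, 71.0 and 31.1 CPM in eGFP mice (log2 fold change -1.16, SE 0.26, adjusted p = 0.0068). Its groups overlapped, since LRG1 library 2 lay above eGFP library 2. Tnfsf12 was at 10.5, 12.4, 11.5 and 9.95 CPM in LRG1 mice, against 30.6, 13.4, 29.1 and 15.6 CPM in eGFP mice (log2 fold change -1.0, SE 0.23, adjusted p = 0.0068). TWEAK RNA was thus raised mostly in eGFP libraries 1 and 3, with libraries 2 and 4 just above the LRG1 mice.

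The other 2 calls did not follow that split. Tnfrsf14 was at 2.32, 2.01, 1.71 and 2.60 CPM in LRG1 mice, against 3.40, 3.46, 4.14 and 3.90 CPM in eGFP mice (log2 fold change -0.78, SE 0.17, adjusted p = 0.0047). Tnfsf8 was at 0.280, 0.0758, 0.131 and 0.234 CPM in LRG1 mice, against 0.782, 0.336, 0.520 and 0.877 CPM in eGFP mice (log2 fold change -1.80, SE 0.40, adjusted p = 0.0064). In both genes all 4 eGFP libraries lay above the LRG1 libraries, and for Tnfsf8 the lowest eGFP library, 2, came close to the highest LRG1 library.

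Without eGFP libraries 1 and 3 of week 10 no member was called at that week by edgeR, and calls over all genes were few too, at 0.338% lower and 0.398% higher. The log2 fold change then was -0.53 for Tnfrsf1b (adjusted p = 0.016 by edgeR), -0.44 for Tnfrsf11a (adjusted p = 0.21) and -0.38 for Tnfsf12 (adjusted p = 0.20). It was -0.78 for Tnf (adjusted p = 0.081), -0.77 for Tnfrsf14 (adjusted p = 0.039) and -1.74 for Tnfsf8 (adjusted p = 0.055), so the size of the last 2 hardly moved. That of Tnfrsf1a was -0.0021 (SE 0.09). Leaving out 1 library in turn gave 0 to 9 lower members at week 10, with 0 also reached without LRG1 library 3 or 4 of that week.

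The member most marked by these eGFP libraries was Tnfrsf26, a mouse receptor whose ligand is not known. It was at 4.09, 5.15, 3.77 and 4.36 CPM in LRG1 mice of week 10, against 24.7, 4.33, 31.7 and 4.33 CPM in eGFP mice. Libraries 1 and 3 were more than 4 times as high as any other library of that week, and the log2 fold change of -1.90 (SE 0.49) had an adjusted p of 0.012. Without these 2 libraries it was 0.0032 (SE 0.16). The neighbour Tnfrsf23 was highest in the same libraries, with 6.78 to 8.52 CPM in LRG1 mice, against 11, 5.64, 12.4 and 6.83 CPM in eGFP mice, while Tnfrsf22 was not apart (3.54 to 5.17 CPM in LRG1 mice, against 3.24 to 5.09 CPM in eGFP mice). These 3 genes resemble each other and share an antisense neighbour, so reads may have been split between them.

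Marker sums divided the eGFP libraries of week 10 in the same way. Macrophage markers summed to 1960 to 2589 CPM in LRG1 mice, against 6536, 2917, 6796 and 4005 CPM in eGFP mice. Mast cell markers (8 genes) summed to 35.3 to 42.7 CPM in LRG1 mice, against 406, 57.4, 449 and 115 CPM in eGFP mice, and neutrophil markers (9 genes) to 32.6 to 84.0 CPM in LRG1 mice, against 203, 21.2, 395 and 114 CPM in eGFP mice. Libraries 1 and 3 were thus the highest of the group in each. Adipocyte markers summed to 28365 to 30467 CPM in LRG1 mice, against 13841, 25180, 16529 and 25573 CPM in eGFP mice, with libraries 1 and 3 the lowest. T cell markers summed to 11.9 to 23.2 CPM in LRG1 mice, against 24.1 to 41.1 CPM in eGFP mice. Lower by the test at week 10 were 11 of 13 macrophage, 7 of 8 mast cell, 6 of 8 tested neutrophil and 5 of 14 T cell markers, and without eGFP libraries 1 and 3 these counts were 5, 3, 0 and 0. Of all genes, 5.24% were lower with these libraries and 0.338% without them. Median log2 fold changes with and without them were -0.996 and -0.773 for macrophage, -2.87 and -1.18 for mast cell and -3.92 and -2.54 for neutrophil markers. For T cell markers the medians were -1.16 and -1.38, so that difference was not smaller without them. The part of these cells in the members' values was not tested.

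**Figure D4:**
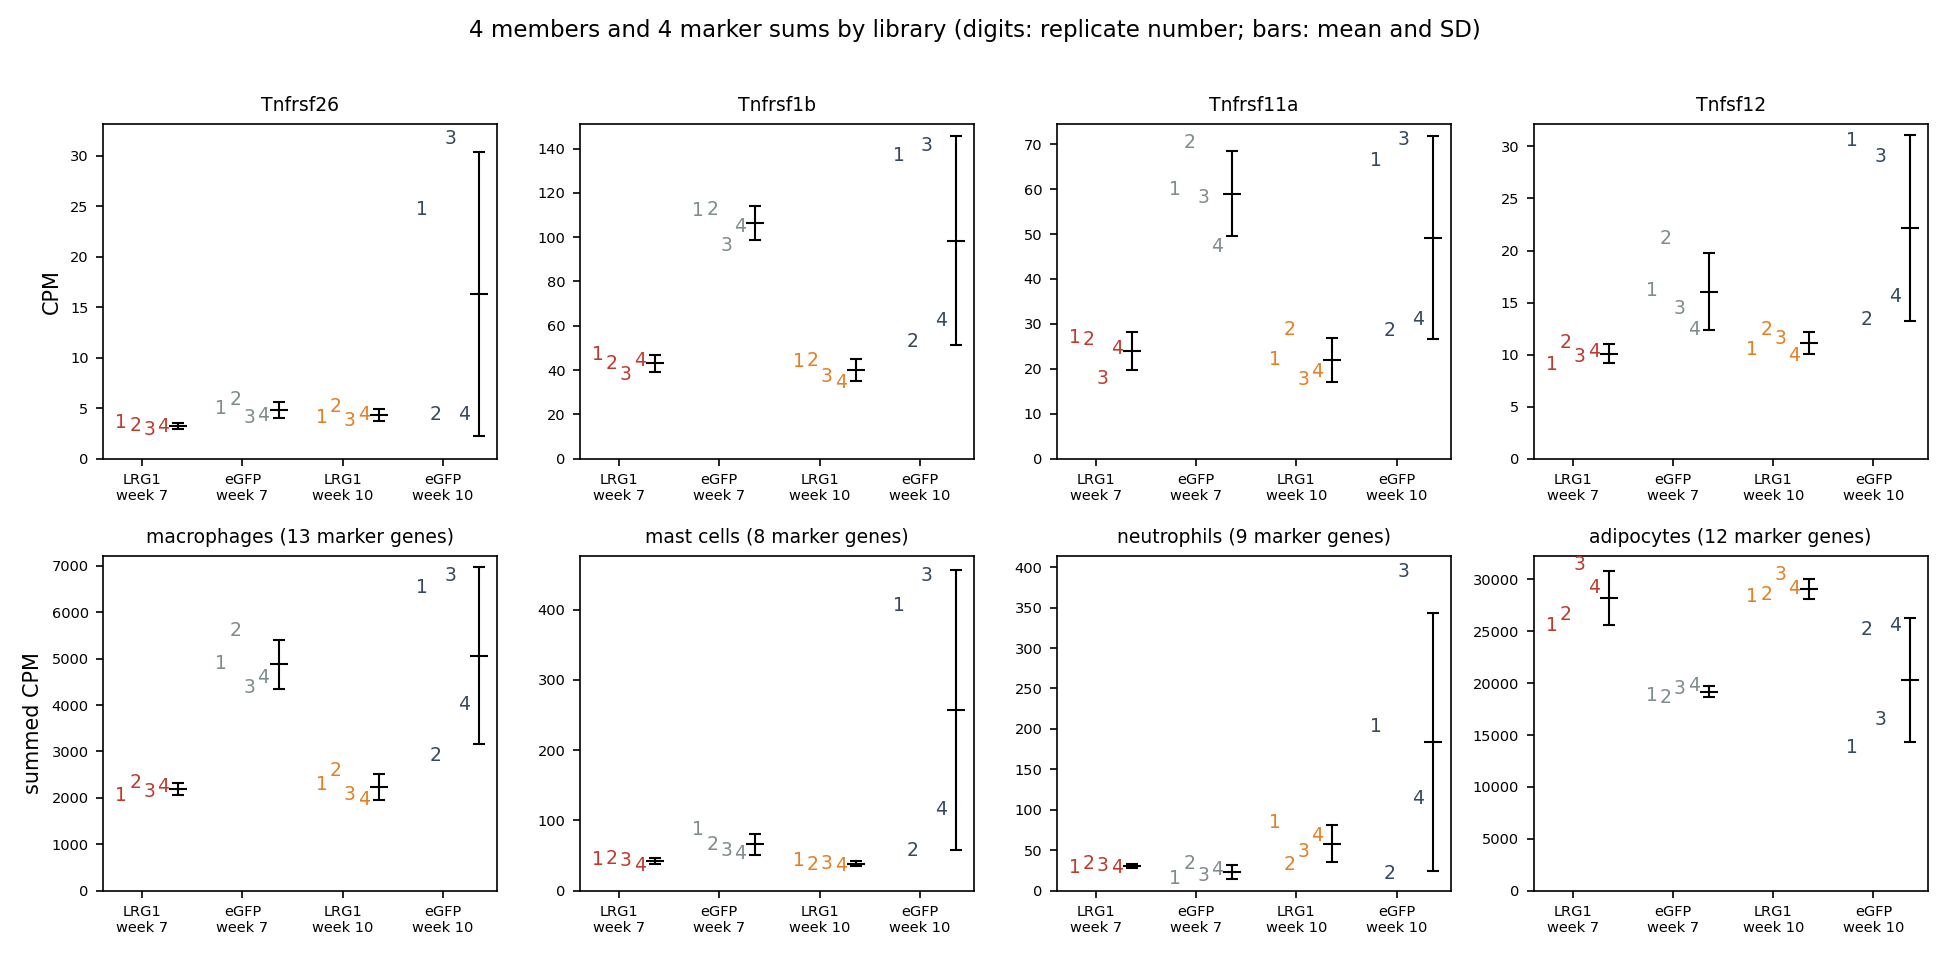
CPM of Tnfrsf26, Tnfrsf1b, Tnfrsf11a and Tnfsf12 (top) and summed CPM of macrophage, mast cell, neutrophil and adipocyte markers (bottom) in each library, drawn as its replicate number. Bars are the mean and SD of 4 mice. In the eGFP group of week 10 libraries 1 and 3 stand above 2 and 4 in the top panels (24.7 and 31.7 CPM for Tnfrsf26, against 4.33 and 4.33 CPM) and below them in adipocyte markers.

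Several members with large differences at week 7 were closer at week 10. Tnfrsf9 was at 0.524, 0.417, 0.686 and 0.451 CPM in LRG1 mice, against 1.32, 0.688, 1.20 and 1.15 CPM in eGFP mice, where eGFP library 2 lay just above the highest LRG1 library (log2 fold change -1.06, SE 0.31, adjusted p = 0.024). Cd27 was at 1.10 to 1.59 CPM in LRG1 mice, against 1.35 to 2.14 CPM in eGFP mice, and Fasl was at 0.324 to 0.758 CPM in LRG1 mice, against 0.751 to 1.46 CPM in eGFP mice, both with overlap. Ltb overlapped as well (0.811 to 2.45 CPM in LRG1 mice, against 2.02 to 3.72 CPM in eGFP mice). On the higher side, Fas was separated at 26.1 to 30.3 CPM in LRG1 mice, against 16.8 to 25.3 CPM in eGFP mice (log2 fold change 0.45, SE 0.13, adjusted p = 0.017), and Eda at 5.05 to 6.24 CPM in LRG1 mice, against 2.03 to 4.89 CPM in eGFP mice (log2 fold change 0.71, SE 0.23, adjusted p = 0.033). Neither was called. Without eGFP libraries 1 and 3 the log2 fold change at week 10 was -0.81 for Tnfrsf9 (SE 0.37), -0.68 for Cd27 (SE 0.30), 0.24 for Fas (SE 0.11) and 0.28 for Eda (SE 0.15).

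Downstream genes gave few calls at week 10. Of 25 receptor-proximal genes, only Madd was lower (-0.61, SE 0.14) and none was higher, and none of the 16 NF-kB genes was called. Of the 20 tested TNF-induced genes 5 were lower, among them the survival gene Bcl2a1b (-1.87, SE 0.28), Icam1 (-0.78, SE 0.14) and Tnfaip2 (-1.58, SE 0.31), while Sod2, the mitochondrial superoxide dismutase, was higher (0.56, SE 0.08). Of the shedding genes Frmd8 was lower (-0.55, SE 0.13). Without eGFP libraries 1 and 3 neither Madd (-0.30, SE 0.11) nor Frmd8 (-0.22, SE 0.08) was called. Of the TNF-induced genes 2 were then lower, Ccl5 and Vcam1, with Sod2 again higher (0.47, SE 0.08). Without these libraries 0.338% of all genes were lower and 0.398% higher.

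Whether the difference between LRG1 and eGFP itself changed from week 7 to week 10 was tested in the same fit. No member passed, where 0.0192% of all genes had a lower and 0.307% a higher value at week 10. At an unadjusted p below 0.05 the fold change was higher, that is less negative or more positive, in 7 members and lower in 1, beside 5.64% and 3.74% of all genes. Tnfrsf9 came closest, with a change of 2.35 on the log2 scale (SE 0.44, adjusted p = 0.015), followed by Cd27 with 1.71 (SE 0.37, adjusted p = 0.037) and Tnfrsf14 with 0.94 (SE 0.23, adjusted p = 0.074). DESeq2 called these 3 higher and none lower, where it called 1.12% of all genes higher and 0.192% lower. limma-voom called no member, and of all genes 0.24% higher and 0.0144% lower. For Tnf the change was 0.31 (SE 0.34, adjusted p = 0.9), and for Tnfrsf1b it was 0.0053 (SE 0.34, adjusted p = 1), a value near 0 whose sign changed under some of the alternatives. Without eGFP libraries 1 and 3 of week 10 the change was 0.78 for Tnfrsf1b (SE 0.15, adjusted p = 0.0060 by edgeR). For Tnfrsf9 it then was 2.60 (SE 0.49, adjusted p = 0.0057). These 2 members were called higher and 0 lower in that fit, beside 1.3% and 0.832% of all genes. The libraries were left out after their values were seen and were the highest of their group for both members. Leaving them out shrinks the week 10 difference by itself, so these calls are no independent test of a change.

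In the eGFP mice alone, 4 members were lower at week 10 than at week 7 and none was higher by edgeR, where 1.51% of all genes were lower and 0.629% higher. Tnfrsf12a (Fn14), a receptor that injured tissue raises, was at 7.27, 5.91, 6.4 and 5.97 CPM at week 10, against 14.3, 15.5, 13.1 and 11.9 CPM at week 7 (log2 fold change -1.10, SE 0.14, adjusted p = 2.8e-04). Tnfrsf9 had a log2 fold change of -2.34 (SE 0.30, adjusted p = 2.9e-04), Cd27 of -1.47 (SE 0.26, adjusted p = 0.0033) and Tnfrsf14 of -0.90 (SE 0.16, adjusted p = 0.0038). In all 4 genes the week 10 libraries lay below the week 7 libraries, as they did in 8 members in all, with 1 member separated the other way, beside 6.89% and 4.08% of all genes. At an unadjusted p below 0.05, 3 members were higher, where 8.98% of all genes were. Neither DESeq2 nor limma-voom called a higher member, beside 2.22% and 0.432% of all genes. Without eGFP libraries 1 and 3 of week 10, 8 members were lower and none higher by edgeR, beside 5.24% and 4.86% of all genes. The 4 named were among them, with log2 fold changes of -1.21 for Tnfrsf12a, -2.58 for Tnfrsf9, -1.28 for Cd27 and -0.91 for Tnfrsf14. The other 4 were Tnfrsf1b, Cd40, Tnf and Tnfrsf11a. With all libraries their log2 fold changes were -0.11, -0.78, -0.86 and -0.26, and none was called. Libraries 1 and 3 were left out after their values were seen and were the highest of their group for Tnfrsf1b, Tnf and Tnfrsf11a. The further calls are thus no independent test. The eGFP values of Tnfrsf9, Cd27 and Tnfrsf14 at week 7 also enter their comparison with LRG1, so the 2 comparisons share libraries. T cell markers summed to 24.1 to 41.1 CPM at week 10 and to 52.4 to 90.1 CPM at week 7 in eGFP mice.

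In the LRG1 mice no member was called between week 10 and week 7, where 0.0048% of all genes were lower and 0.0048% higher. At an unadjusted p below 0.05, 4 members were higher and 2 lower, beside 4.26% and 4.13% of all genes. Neither DESeq2 nor limma-voom called any member, where DESeq2 called 0.154% of all genes higher and 0.11% lower and limma-voom 0.0048% in each direction. The weeks were separated in 3 members with week 10 higher and in 0 with week 10 lower, beside 3.64% and 3.41% of all genes. Tnfrsf12a had the smallest p, with 9.47, 8.36, 5.59 and 7.84 CPM at week 10, against 10.2, 10.4, 9.32 and 11.5 CPM at week 7 (log2 fold change -0.41, SE 0.14, adjusted p = 0.44). Tnfrsf9 stayed at 0.417 to 0.686 CPM at week 10, against 0.276 to 0.793 CPM at week 7. Tnfrsf13c, the BAFF receptor of B cells, ran at 0.433 to 3.01 CPM at week 10, against 0.162 to 0.878 CPM at week 7, and in eGFP mice at 1.30 to 3.39 CPM at week 10, against 0.282 to 1.29 CPM at week 7, and was called in neither group. Beside it, B cell markers summed to 11.1 to 69.9 CPM at week 10 and 9.86 to 24.7 CPM at week 7 in LRG1 mice.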

How the data were processed

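RNA of whole eWAT from 16 mice was sequenced by the authors, with Cutadapt named for trimming, STAR for alignment (mm10) and featureCounts for counting. Raw counts of 55573 Ensembl genes, not normalized, were deposited beside gene lengths. Tool versions and the strand and multi-mapping settings are not given in the sources used here. Symbols were matched for 55394 genes, all 47 members had the coordinates of GENCODE M21 (GRCm38), and 0 sample columns were left unmapped.

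Differential expression was computed by edgeR 4.0.16 in R 4.3.3. After filterByExpr, 20822 genes remained, TMM factors were 0.847 to 1.10, and a single quasi-likelihood model held the 16 libraries with 1 term per group. Calls were made at a Benjamini-Hochberg adjusted p below 0.01 over all genes tested. Standard errors were derived from the fold change and its F statistic. Each library is 1 mouse, and p-values rest on 4 mice per group.

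Members called between LRG1 and eGFP at either week are given in every library, at most 14 per comparison in order of adjusted p, with Tnf, Tnfrsf1a and Tnfrsf1b whatever their result. Fas, Eda, Tnfrsf12a, Tnfrsf26, Tnfrsf23, Tnfrsf22 and Tnfrsf13c were given library values or ranges after their values were seen. For a list of other genes, up to 4 with the smallest adjusted p are named. Tab3, Cd3g, Gzmk, Klrb1c and Ncr1 were named after their values were seen. The members and lists were chosen with earlier results of these data known.

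Alternatives were DESeq2 1.42.0, voom of limma 3.58.1, separate fits for the 8 libraries of a comparison, scaling by RLE, by upper quartile or by totals, removal of mitochondrially encoded genes, other filters, a threshold of 0.05, the replicate number as a block, and each library left out. Replicate numbers did not pair mice, since the deviations of the 24 same-numbered pairs had a median correlation of 0.0244 (-0.304 to 0.319). Log counts within a group correlated at 0.961 to 0.985, and no library was a duplicate. Promoter windows are from RefSeq. The labels give no batch.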

Additional observations from a re-analysis of the deposited data

Results flagged for a closer look

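In each group of 4 mice, the library farthest from its neighbours was compared with Dixon's critical value for 4 samples, for each of the 44 tested members, which makes 176 sets of 4 values. By chance about 1 in 20 such sets is past this limit, and 10 of 176 (5.68%) were. In the fit of all 16 libraries no member had a change of the LRG1 effect between the weeks that passed the test. None had groups separated in opposite directions at the 2 weeks.

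In the LRG1 group of week 10, library 2 was high for Lta at 0.455 CPM (the others 0.180 to 0.196 CPM) and low for Tnfrsf21 at 21.9 CPM (the others 28.6 to 29.6 CPM). Library 3 was high for Tnfrsf4 at 0.686 CPM (0.306 to 0.332 CPM) and low for Tnfsf11 at 0.0327 CPM (0.0699 to 0.0758 CPM). Library 4 was low for Tnf at 0.721 CPM (1.17 to 1.26 CPM). In the LRG1 group of week 7, library 4 was high for Tnfsf9 at 0.551 CPM (0.227 to 0.255 CPM).

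In the eGFP group of week 7, library 4 was high for Lta at 0.319 CPM (0.171 to 0.190 CPM) and for Tnfsf13b at 5.48 CPM (4.16 to 4.24 CPM), and low for Tnfrsf21 at 27.5 CPM (29.6 to 30.0 CPM). In the eGFP group of week 10, library 4 was high for Tnfsf13b at 5.18 CPM (3.89 to 4.08 CPM).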

How the results depend on the processing

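The 13 lower members of week 7 stayed within 1.5 times under each alternative run (10 to 14 when 1 library was left out). None of the 21 fold changes of members called at a week, or of Tnf, Tnfrsf1a and Tnfrsf1b, turned its sign at that week. Over all 44 tested members, at least 1 alternative turned the sign in 6 at week 7, Fas, Ltbr and Tnfsf9 among them, and in 13 at week 10, and none of these was called. Of them Tnfrsf26 had the largest fold change, -1.90, and 0.0032 without eGFP libraries 1 and 3. Higher members at week 7 numbered 0 in the fit reported, 1 with DESeq2, limma-voom, only the 8 libraries compared or upper quartile scaling, 2 at an adjusted p below 0.05, and 0 to 1 with 1 library left out. Of all genes, 11.5% were higher with DESeq2 and 7.87% with limma-voom. Higher genes numbered 2581 of 19719 with only the 8 libraries, 1993 of 20822 with upper quartile scaling and 3113 of 20822 at 0.05. At week 10 the 6 lower members became 10 with DESeq2, 2 with limma-voom, 0 with only the 8 libraries compared, 12 at an adjusted p below 0.05, and 0 to 9 with 1 library left out (0 without eGFP library 1 or 3 or LRG1 library 3 or 4, and 3 without LRG1 library 1 or 2). Of all genes, 9.5% were lower with DESeq2, 3.07% with limma-voom and 2615 of 20822 at 0.05. Higher members at week 10 numbered 0, and 3 with DESeq2 or at 0.05, and 0 to 1 with 1 library left out. Beside these, 7.62% of all genes were higher with DESeq2 and 2146 of 20822 at 0.05. For the change of the effect the 0 higher members became 3 with DESeq2, 1 with library totals only or with no filter beyond 1 count, 2 at 0.05, and 0 to 1 with 1 library left out. Genes higher for this change were 1.12% with DESeq2 and 178 of 20822 at 0.05. They were 119 of 20822 with totals only and 98 of 38172 with no filter. In eGFP mice the 4 members lower at week 10 became 7 with DESeq2 or at 0.05, 2 with only the 8 libraries compared, and 2 to 5 with 1 library left out (2 without eGFP library 1 or 4 of week 7), and the 0 higher members became 1 at 0.05 and 0 to 1 with 1 library left out. Of all genes, 2.96% were lower with DESeq2, 741 of 20822 at 0.05 and 85 of 19523 with only the 8 libraries. At 0.05, 479 of 20822 genes were higher. Leaving out eGFP libraries 1 and 3 of week 10 together was chosen after seeing the data. It gave 1 higher member at week 7 and 0 lower at week 10, beside 13.1% and 0.338% of all genes. It further gave 2 higher for the change of the effect, Tnfrsf9 and Tnfrsf1b, beside 1.3% of all genes. In eGFP mice it gave 8 lower between weeks, beside 5.24% of all genes. The causes of these shifts were not tested. With the replicate number as a block, 13 members were lower at week 7 and 4 at week 10, where Tnfrsf11a and Tnfsf12 were not called; the numbers are not a pairing of mice. Over all genes, calls at week 10 were 1092 lower and 762 higher, 10 and 2 with only the 8 libraries compared, 642 and 532 with the block, and 74 and 87 without eGFP libraries 1 and 3. Library totals alone moved the median of all genes by -0.152 (log2) at week 7. Members under 1 CPM rest on few counts.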
